A study of Rattus norvegicus with 192 samples.

Results

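The subject is the acidifying and protein-degrading machinery of the lysosome, read through the probes for the vacuolar proton pump (V-ATPase), the cathepsins and the lysosome-associated membrane proteins (LAMP). Probes were chosen by gene symbol: those beginning Atp6v0, Atp6v1 or Atp6ap, those made of Cts and a final letter, and Lamp1 to Lamp3. This was done with earlier results of these data known. The choice gave 42 of 21143 gene symbols, read by 45 of 22253 probes, the members: 13 for subunits of the pump's V1 sector, 10 for its V0 sector, 3 for accessory subunits, 16 for cathepsins and 3 for LAMP proteins. Atp6v1a, Atp6v0a4 and Atp6v0e1 have 2 probes each. Of the 45 probes, 31 (29 symbols) passed a filter on low values that left 11055 probes for testing, at least 1.7406 CPM, counts scaled to the library's total, in at least 6 libraries. The 14 others were Atp6v0a4 (both probes), Atp6v0d2, Atp6v1b1, Atp6v1e2, Atp6v1g2, Atp6v1g3, Ctse, Ctsg, Ctsj, Ctsq, Ctsr, Ctsw and Lamp3. The highest value of any of those 14 in any of the 192 libraries was 2.60 CPM, for Atp6v0d2, and Ctsj and Lamp3 had a count of 0 in all 192.

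The V-ATPase is a rotary motor. Its cytosolic V1 sector hydrolyses ATP and turns a central stalk, and its membrane V0 sector carries protons into the lumen of lysosomes and endosomes. The cathepsins are proteases, most of them working best at the acidic pH that the pump creates, and LAMP proteins make up much of the glycoprotein coat on the inner face of the lysosomal membrane. In the liver this system takes apart proteins and organelles delivered by endocytosis and autophagy, and a set of its genes is known to be switched on together by the transcription factor TFEB, which binds a motif called CLEAR.

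The cells were primary hepatocytes of male rats on collagen-coated plates, exposed for 24 h to a chemical, or to 0.1% DMSO, the vehicle, as control. Dose series of 29 chemicals with 6 doses each, 1 library per dose, made 174 libraries. The top dose was 33.3 µM for 13 chemicals (imazalil, triflumizole, flusilazole, tetraconazole, hexaconazole, dithiopyr, ametryn, alachlor, acetochlor, Bensulide, Bisphenol A, etoxazole and triclosan). It was 100 µM for 16 (cyproconazole, triticonazole, triadimefon, PFOA, PFOS, carbaryl, S-Bioallethrin, oxadiazon, fludioxonil, simazine, isoxaflutole, cyprodinil, cyclanilide, dichlobenil, dimethenamid and DEHP). Consecutive doses are about 3-fold apart by the values given, although the labels speak of a log2 step. A further 9 reference chemicals had 1 library each (sulforaphane, testosterone, dexamethasone and 17beta-estradiol at 10 µM, oltipraz at 30 µM, WY-14,643 and Pregnenolone 16alpha carbinonitrile at 15 µM, and TCPOBOP and GW4046 at 1.5 µM), and DMSO alone had 9 libraries. The labels do not say whether wells came from separate animals or cultures, so every p-value measures only the spread between these libraries. RNA was read with TempO-Seq, in which pairs of detector oligos that anneal side by side on an mRNA are ligated, amplified and counted, so that a gene is seen through a short target and levels of different probes are not compared here.

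Libraries held between 582071 and 11249014 counts, with a median of 5745085. Well names in the headers place 90 libraries on plate 1, 90 on plate 2 and 12 on plate 3. DMSO replicate 1 stood apart: its correlation with the other DMSO libraries was 0.73 to 0.84 (log2 CPM), against 0.91 to 0.99 among replicates 2 to 9, and it had 834 CPM of Atp6v1e1, 320.1 CPM of Ctsb and 4.54 CPM of Atp6v0c, against 19.8 to 50.7, 1453 to 2948 and 41.0 to 98.4 CPM in replicates 2 to 9. Replicates 2 to 9 therefore served as controls, and values with replicate 1 included are given where they change a result. A first library score placed each library along the direction in which DMSO replicate 5 departs from replicates 4 and 6, which share its plate. It was over 0.5 in 11 treated libraries. A second did the same for the Bisphenol A 11.1 µM library, without the probes described here, and was over 0.2 in 14 treated libraries. Hepatocyte marker probes summed to 40302 to 64005 CPM in DMSO replicates 2 to 9, macrophage markers to 111 to 148 CPM, and markers of lymphoid cells and neutrophils to at most 0.13 CPM.

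The sequence around matches to the CLEAR motif is shown because it names the members whose start region carries the motif of the known lysosomal regulator. The search covered TCACGTGA, the core of CLEAR, which reads the same on both strands, and CACGTG, which lies inside it, in 250 bases before to 50 bases after each RefSeq start (rat build GRCr8). Of the 42 member symbols, 35 had a promoter entry. Atp6v0d2, Atp6v0e2, Atp6v1b2, Atp6v1c1, Ctsb, Ctsq and Ctsw were not matched. TCACGTGA was found in 260 of 33469 promoters (0.777%) and in 4 of the 35 members, Atp6v0d1, Atp6v0e1, Ctsd and Lamp1. CACGTG was found in 2148 promoters (6.42%) and in those 4 members and Ctsf. Not printed are further CACGTG matches in Ctsd, in the stretch 168 to 141 bases before the start, and in Lamp1. Those of Lamp1 lie in the stretches 194 to 167, 178 to 151 and 161 to 134 bases before the start. Capitals mark the match, and all sequences run 5′ to 3′ on the strand of the gene.
Atp6v0d1, chr19:50357283-50357312, minus strand, 64 to 35 bases before the start: ccccattgtggTCACGTGAgatgcagtgcg
Atp6v0e1, chr10:17007115-17007144, minus strand, 13 to 42 bases after the start: tcgcgcgccggTCACGTGAgcctctgttga
Ctsd, chr1:206968814-206968843, minus strand, across the start: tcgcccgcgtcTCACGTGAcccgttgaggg
Lamp1, chr16:83075111-83075140, minus strand, 77 to 48 bases before the start: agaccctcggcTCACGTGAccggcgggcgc
Lamp1, chr16:83075084-83075113, minus strand, 50 to 21 bases before the start: cgcggcactgtTCACGTGAcaggcgctgcc
Ctsf, chr1:211582009-211582036, plus strand, 160 to 133 bases before the start: accccgtggtcCACGTGcctcgcgtaaa
The last 60 bases before the start of Atp6v1d, the pump subunit with the smallest p under imazalil, hold neither motif.
Atp6v1d, chr6:103405347-103405406, minus strand: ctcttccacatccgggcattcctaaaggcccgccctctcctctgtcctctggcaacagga

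In DMSO alone the spread between libraries differed from probe to probe, and low counts widen it for probes of low level. The coefficient of variation over replicates 2 to 9 was 10.2% for Atp6ap1, an accessory subunit that helps assemble the pump, and for Atp6v1d, and 11.2% for Lamp1. It was 54.4% for Ctsa, a serine carboxypeptidase, and 48.1% for Atp6v0b, a subunit of the V0 proteolipid ring, whose probes averaged 2.37 and 2.30 CPM. Ctsl, a cysteine endopeptidase, averaged 6324 ± 981 CPM and Ctsb, a cysteine protease, 2084 ± 536 CPM (SD, n = 8). Ctsd, the main aspartic protease of the lysosome, averaged 81.3 ± 18.4 CPM, and Ctsc, dipeptidyl peptidase I, which activates other proteases by trimming their ends, 359.9 ± 72.7 CPM.

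Dose trends were fitted for each of the 29 chemicals with edgeR's quasi-likelihood test, with plate as a term and log2(1 + dose in µM) as the dose score. Changes are given as the fitted log2 change at 33.3 µM over 0 µM ± standard error, and a call is an adjusted p under 0.05 over all 11055 probes. Such changes are values of the fitted line and can differ from the level measured at 33.3 µM. Over the 899 tests of members, 15 rose and 7 fell. Over all probes and chemicals 0.95% were higher and 0.713% lower. The 22 calls lay in 7 chemicals: 7 higher under imazalil, 4 higher and 2 lower under dithiopyr, 4 higher and 1 lower under cyproconazole, and 1 lower each under triticonazole, S-Bioallethrin, PFOA and oxadiazon. In the other 22 chemicals edgeR called 0 of 682 member tests and DESeq2 called 3 higher and 3 lower, and edgeR's unadjusted p was under 0.05 for 37 higher and 25 lower. Of all probes 0.207% were called in those 22 chemicals. All comparisons share the same 8 DMSO libraries.

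Under imazalil, an imidazole fungicide, subunits of the V1 sector rose: 5 of the 9 tested V1 probes, 1 of 3 accessory subunits and 1 of 10 cathepsins passed the test. No member fell, and 7.68% of all probes were called higher and 2.87% lower. Lipophilic weak bases are known as a class to collect in acidic compartments, and whether imazalil did so in these cells was not measured. The members' median fitted change was 0.25, against -0.04 for all probes, with medians of 0.94 for V1 subunits and -0.39 for V0 subunits. Of the 7 V0 probes both edgeR and DESeq2 called 0, and edgeR's unadjusted p was under 0.05 for 3 of them, 2 higher and 1 lower.

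Atp6v1d, part of the rotating central stalk, had 515, 519, 523, 530.1, 537 and 1101 CPM at 0.14, 0.4, 1.2, 3.7, 11.1 and 33.3 µM imazalil, against 441 to 566 CPM (median 478) in DMSO. The first 5 doses lay within the DMSO range and the last was above it. The fitted change was 1.11 ± 0.21 (adjusted p = 0.0108). Atp6v1e1, a subunit of the peripheral stalks that hold V1 still, had 32.5, 42.6, 35.6, 39.3, 30.2 and 168 CPM, against 19.8 to 50.7 CPM (median 31.9) in DMSO. Here too the top dose alone left the control range, and the change was 1.96 ± 0.43 (adjusted p = 0.0164).

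Atp6v1c1, which links V1 to V0 and takes part in the pump's reversible assembly, had 159, 95.5, 129, 155, 111 and 586 CPM at the 6 doses, against 59.4 to 177 CPM (median 137) in DMSO. Only 33.3 µM exceeded the controls, and the change was 1.87 ± 0.42 (adjusted p = 0.0190). Atp6v1g1, a partner of the E subunit in the peripheral stalks, reached 486 CPM at 33.3 µM and 253 to 298 CPM at the lower doses, against 178 to 280.1 CPM in DMSO (0.94 ± 0.19, adjusted p = 0.0135). Atp6v1f, a central stalk subunit, reached 207 CPM at 33.3 µM and 95.8 to 122 CPM at the lower doses, against 87.7 to 148 CPM in DMSO (1.07 ± 0.24, adjusted p = 0.0177). For Atp6v1g1 2 of the lower doses were already above all 8 controls, by less than the distance to 33.3 µM. For Atp6v1f the lower doses were not.

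The remaining V1 probes gave no call. Atp6v1a, the catalytic A subunit, changed by 0.28 ± 0.25 and 0.28 ± 0.23 by its 2 probes, and Atp6v1b2, the nucleotide-binding B subunit, by 0.51 ± 0.46. Atp6v1c2, a second form of the C subunit, changed by -0.47 ± 0.43. The 95% interval for Atp6v1b2 was -0.46 to 1.48, which takes in the change of Atp6v1d, while those of the Atp6v1a probes ended at 0.80 and 0.76 and that of Atp6v1c2 at 0.45. Atp6v1b2 had 153 CPM at 33.3 µM, inside the DMSO range of 116 to 176 CPM, and 25.2 CPM at 0.4 µM.

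Atp6ap2, the (pro)renin receptor, which is also a membrane-bound accessory subunit of the pump, had 142, 162, 181, 168, 140.3 and 315 CPM, against 89.0 to 186 CPM (median 135) in DMSO. It rose by 1.04 ± 0.24 (adjusted p = 0.0213), with all lower doses inside the control range. Among cathepsins, Ctsl had 7445, 5036, 5637, 6593, 7005 and 10327 CPM, against 4219 to 7240.2 CPM (median 6659) in DMSO, and rose by 0.77 ± 0.23 (adjusted p = 0.0422). Its lowest dose was also above the controls, and of the 7 calls it was the least stable, being lost in 12 of 25 alternative settings, among them the fits without DMSO replicate 2, 4, 7, 8 or 9.

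Members that did not pass the trend test moved in both directions at 33.3 µM. Ctsb had 4019.9 CPM there, against 1453 to 2948 CPM in DMSO, and a fitted change of 0.80 ± 0.32 (adjusted p = 0.109). Atp6v0a1, the V0 subunit that lines the proton path, had 6.65 CPM, against 13.6 to 18.5 CPM in DMSO (-0.81 ± 0.31, adjusted p = 0.100), and Atp6v0c, the main proteolipid of the V0 ring, 32.5 CPM, against 41.0 to 98.4 CPM in DMSO (-0.48 ± 0.35). The 4 members with TCACGTGA printed above gave no call: Ctsd had 46.9 CPM at 33.3 µM, against 66.9 to 124 CPM in DMSO (-0.40 ± 0.30), Lamp1 398 CPM, against 248 to 374 CPM (0.15 ± 0.18), Atp6v0d1 26.0 CPM, against 9.73 to 17.7 CPM (0.75 ± 0.29, adjusted p = 0.0954), and the Atp6v0e1 probes changed by -0.33 ± 0.56 and -0.39 ± 0.43. Of the 7 called members, the 6 with a promoter entry had neither motif in the window.

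**Figure D1:**
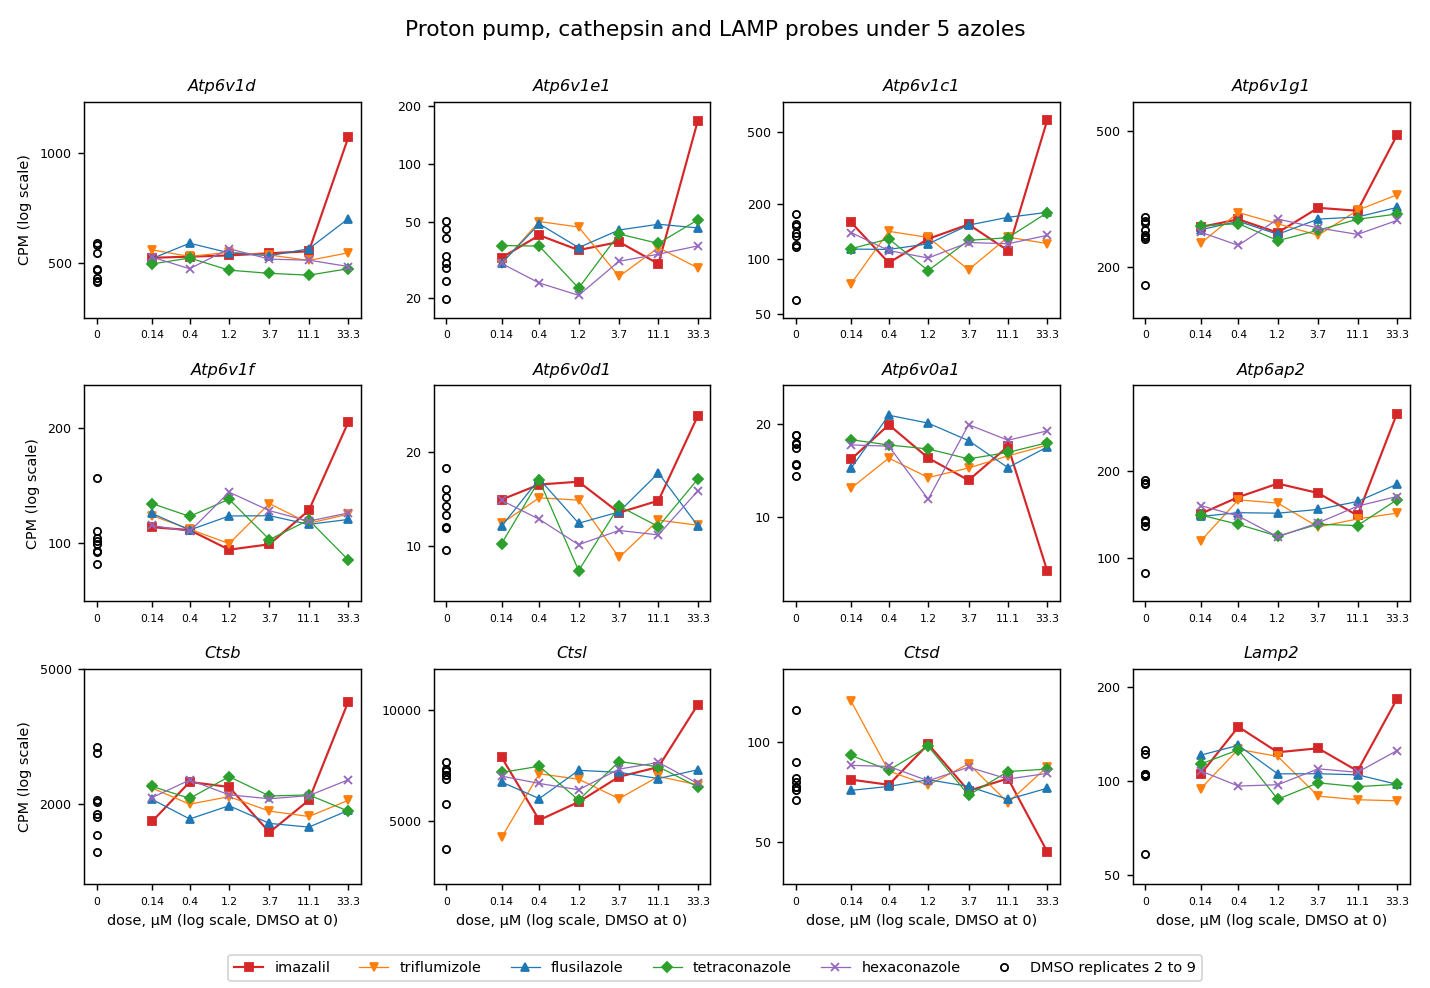
CPM (log scale) of 12 members against dose in µM (log scale, DMSO placed at 0) for imazalil (red squares), triflumizole, flusilazole, tetraconazole and hexaconazole, 1 library per dose, with DMSO replicates 2 to 9 as open circles. At 33.3 µM imazalil stands above the other azoles for Atp6v0d1, Atp6ap2, Ctsb, Ctsl, Lamp2 and the V1 subunits called in its trend. It stands below them for Atp6v0a1 and Ctsd.

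The imazalil trend rested on the 33.3 µM library. Without it edgeR called 0 of 31 members and found 0 at an unadjusted p under 0.05. With doses scored by rank the calls were 0 (10 higher at an unadjusted p under 0.05), with DMSO replicate 1 added 0 (6 higher), and without the 11.1 µM library 11 higher and 2 lower. In the 33.3 µM library 13 of 31 members lay above and 7 below all of DMSO replicates 2 to 9, beside 27.5% and 38.4% of all probes. At the highest dose of triticonazole 13 lay above and 3 below, beside 29% and 17.1%, and of simazine 11 and 0, beside 15.7% and 14.6%. Cyproconazole had 13 and 6, beside 28.9% and 39.8%. Ametryn had 10 and 1, beside 21.3% and 19.3%, and triadimefon 10 and 1, beside 24% and 15.4%. PFOA had 4 and 17, beside 21.9% and 52.3%, and alachlor 4 and 13, beside 16.5% and 32.9%. Such counts were not particular to imazalil. In the 11.1 µM library of imazalil 2 lay above and 2 below, beside 7.25% and 10.6%. Tested alone against DMSO, the 33.3 µM library had 11 members higher and 2 lower, where 13.7% of all probes were higher and 15.9% lower. Such a test of 1 library takes its spread from the DMSO libraries alone and assumes that the treated library varies like them, so it adds no replicate to the trend. Beyond the 7 above, the members past the threshold in it were Atp6v0b (1.89 ± 0.60), Atp6v0d1 (1.03 ± 0.32), Ctsb (1.03 ± 0.34) and Lamp2 (0.97 ± 0.28) as higher and Atp6v0a1 (-1.25 ± 0.30) and Atp6v0e2 (-2.77 ± 0.91) as lower. The count of calls was 7 without DMSO replicate 2, 8 without replicate 3 and 0 with replicate 1. With the second library score in the fit 5 of the 13 calls held (Atp6ap2, Atp6v1c1, Atp6v1g1, Ctsl and Lamp2) and those of Atp6v1d, Atp6v1e1 and Atp6v1f ended. With both scores that of Ctsb alone held, and Atp6v1e1, Ctsl and Atp6v0b turned sign. The Ctsb change was then 4.39, against 1.03 in the main fit and -0.34 with the second score alone. The second score was 0.16 in this library, against -0.016 to 0.049 in DMSO replicates 2 to 9. These fits therefore carry the score beyond the controls and cannot separate it from the treatment.

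Other values moved with that library. Its depth was 6614172 counts, its first library score -0.445, the lowest of all treated libraries, and its second score 0.16. Hepatocyte markers summed to 20438 CPM in it, against 40302 to 64005 CPM in DMSO, and 5 of 11 were lower in the library tested alone and 0 higher. Fewer cells of a type and less RNA per cell cannot be told apart in such bulk samples. Macrophage markers summed to 84.1 CPM, against 111 to 148 CPM in DMSO, with Adgre1 at 0 and 0 of 12 called. Endothelial markers summed to 21.9 CPM, against 16.1 to 23.7 CPM in DMSO, stellate and fibroblast markers to 14.2 CPM, against 50.4 to 86.8 CPM, and bile duct markers to 24.0 CPM, against 16.0 to 29.2 CPM. The part of the hepatocyte and stellate marker levels in the result was not tested.

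Other genes of the lysosome were read from lists that do not overlap the members. The counts of each list stand beside the 7.68% of all probes called higher and 2.87% called lower in this trend. Of 30 tested hydrolases and cofactors 2 rose and 0 fell in the imazalil trend, and nothing particular to a list is read from such counts. Lgmn, the asparaginyl endopeptidase that processes cathepsins, had 548 CPM at 33.3 µM, against 142 to 181 CPM in DMSO (1.48), and Gaa, acid alpha-glucosidase, 219 CPM, against 62.9 to 103 CPM (1.06). Of 31 membrane and transport proteins 7 rose and 1 fell. Cd68, a LAMP-family protein that is also used as a macrophage marker, had 123 CPM at 33.3 µM, against 5.21 to 20.2 CPM in DMSO. Lmbrd1, which serves cobalamin export, had 555 CPM, against 180.5 to 228 CPM. Sidt2 was the one that fell, with 14.1 CPM, against 26.0 to 47.0 CPM in DMSO. Of 29 genes of TFEB signalling and autophagy 1 rose and 0 fell, Rragd, a Rag GTPase of the nutrient-sensing machinery, with 17.4 CPM at 33.3 µM, against 0 to 1.51 CPM in DMSO. Of 12 genes of mannose 6-phosphate sorting 2 rose (Vps29 and Gga3), and of 4 cathepsin inhibitors 2 rose (Cst6 and Serpinb6). The median fitted changes were 0.13 for hydrolases, 0.30 for membrane proteins, -0.16 for TFEB and autophagy genes and 0.38 for sorting genes, against -0.04 for all probes.

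The genes outside the membership whose log2 CPM followed Atp6v1d most closely over the 6 imazalil and 8 DMSO libraries were Hmga1, Ddit3, Ptp4a2, Nabp1 and Lsm10, with Pearson's r of 0.96, 0.96, 0.96, 0.96 and 0.95 over 14 libraries. These libraries share 1 point far from the rest. Ddit3, a transcription factor of the stress responses, had 1599.9 CPM at 33.3 µM, against 43.5 to 79.4 CPM in DMSO.

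Plate 1 held 4 other azoles at the same 6 doses as imazalil: triflumizole, which like imazalil carries an imidazole ring, and flusilazole, tetraconazole and hexaconazole, which carry a triazole ring. In their 4 trends both edgeR and DESeq2 called 0 of the 31 members, and edgeR's unadjusted p was under 0.05 for 6 higher and 2 lower in all. Of all probes 0.215% were called higher and 0.197% lower in these 4 trends. A pair of contrasts of slopes was tested in a single model of the 30 azole libraries and 8 DMSO libraries, each adjusted over 11055 probes.

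For imazalil minus the mean of the other 4, 12 members were higher and 1 lower, where 14.6% of all probes were higher and 7.43% lower. Atp6v1d had 1101 CPM at 33.3 µM imazalil, against 481 to 659 CPM at 33.3 µM of the others and 462 to 659 CPM over their 24 libraries (difference 0.83 ± 0.12, adjusted p = 2.6e-05). Atp6ap2 had 315 CPM, against 143 to 180 CPM at 33.3 µM of the others (0.87 ± 0.15, adjusted p = 9.3e-05). Atp6v1c1 had 586 CPM, against 122 to 181 CPM (1.50 ± 0.27, adjusted p = 0.000185). The imazalil library was above all 24 of the others for each of these 3. Atp6v1e1 had 168 CPM, against 28.8 to 51.2 CPM (1.54 ± 0.30), Atp6v1g1 486 CPM, against 274 to 326 CPM (0.63 ± 0.11), and Atp6v1f 207 CPM, against 90.025 to 119.7 CPM (0.63 ± 0.17).

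Members with no imazalil trend call were also separated by this contrast. Lamp2, a LAMP protein that also serves as a receptor in chaperone-mediated autophagy, had 183 CPM at 33.3 µM imazalil, against 86.5 to 125 CPM at 33.3 µM of the others (0.83 ± 0.16, adjusted p = 0.000425). Ctsb had 4019.9 CPM, against 1911 to 2365 CPM (0.74 ± 0.19, adjusted p = 0.00502), and Ctsf, a cysteine cathepsin, 126 CPM, against 37.6 to 88.4 CPM (0.98 ± 0.28, adjusted p = 0.0123). The order was the same for all of them, imazalil above each other azole library. The other calls were Ctsl (0.50 ± 0.14), Atp6v0d1 (0.86 ± 0.22), a V0 subunit that couples the stalk to the ring, and Atp6v0b (1.16 ± 0.35) as higher and Atp6v0a1 (-0.64 ± 0.22) as lower. Atp6v0a1 had 6.65 CPM at 33.3 µM imazalil, against 16.9 to 19.0 CPM at 33.3 µM of the others.

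For the 18 members not called, the 95% intervals of the difference ran from -2.04 to 1.06. The interval was -0.10 to 0.31 for Atp6ap1 and -0.05 to 0.42 for Lamp1, and -0.62 to 0.83 for Ctsc. Without the 33.3 µM libraries 0 members were called (2 higher at an unadjusted p under 0.05). With DMSO replicate 1 in the model 3 were called, Atp6v1d, Atp6v1c1 and Atp6v0d1.

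Grouping by ring gave 1 call. For the 2 imidazoles minus the 3 triazoles, Atp6v1g1 was higher (0.42 ± 0.09, adjusted p = 0.030007), where 0.217% of all probes were higher. At 33.3 µM it had 486 CPM under imazalil and 326 CPM under triflumizole, against 274 to 299 CPM under the triazoles. The intervals of the other 30 members ran from -1.05 to 1.21, and the call ended without the 33.3 µM, 0.14 µM or 0.4 µM libraries and with DMSO replicate 1.

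**Figure D2:**
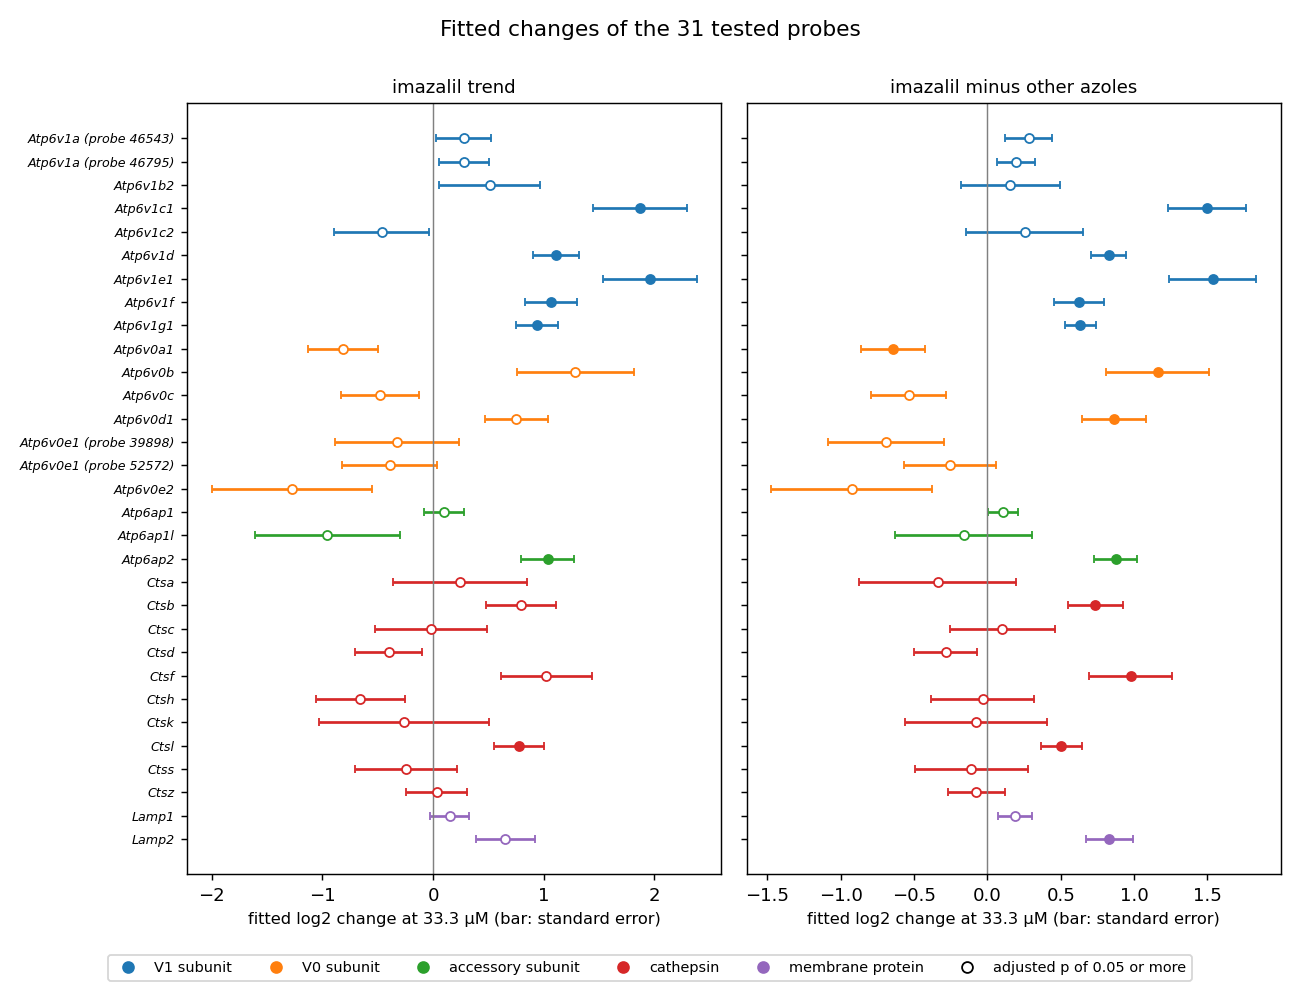
Fitted log2 change at 33.3 µM (bars, standard error) of the 31 tested probes, coloured by role, in the imazalil dose trend (left) and in imazalil minus the other 4 azoles (right); filled points have an adjusted p under 0.05. In the left panel 5 V1 subunits, Atp6ap2 and Ctsl are filled, and in the right panel 12 members to the right of 0 and Atp6v0a1 to the left of it are filled.

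Cyproconazole, a triazole fungicide dosed up to 100 µM, had 4 members higher and 1 lower in its trend, where 5.83% of all probes were higher and 3.1% lower. Atp6v0b had 1.87, 1.77, 2.88, 1.87, 2.20 and 81.3 CPM at 0.4, 1.2, 3.7, 11.1, 33.3 and 100 µM, against 1.03 to 4.16 CPM (median 2.06) in DMSO, with 109 counts behind the last value. The 5 lower doses lay within the controls and the last far above them, and the fitted change was 3.82 ± 0.62 (adjusted p = 0.00448). That value belongs to the fitted line at 33.3 µM, where the library itself had 2.20 CPM, inside the control range. Atp6v1f had 109, 100.3, 99.7, 102, 140.5 and 363 CPM, against 87.7 to 148 CPM in DMSO (1.06 ± 0.22, adjusted p = 0.0129). Ctsa, which also shields neuraminidase from breakdown, had 1.31, 2.44, 2.16, 3.21, 3.66 and 19.4 CPM, against 1.04 to 4.87 CPM in DMSO (1.95 ± 0.50, adjusted p = 0.0262). For all 3 the 100 µM library alone was above the controls. Atp6v1d rose by 0.48 ± 0.14 (adjusted p = 0.0428), a call that ended in 14 of 25 alternative settings, among them leaving out any DMSO replicate other than 5, and its value was 0.14 without 100 µM. Ctsc fell by 0.92 ± 0.19 (adjusted p = 0.0124).

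The 100 µM cyproconazole library alone had 10 members higher and 2 lower, where 12.7% of all probes were higher and 17.2% lower. Atp6v1b2 had 441 CPM in it, against 116 to 176 CPM in DMSO (1.86 ± 0.16, adjusted p = 6.4e-05). At the next dose down, 33.3 µM, it had 65.2 CPM, below all 8 controls. Atp6v0b changed by 5.34 ± 0.46 and Atp6v1f by 1.81 ± 0.24, and Atp6v1c1, Atp6v1d, Atp6v1g1, Atp6ap2, Ctsa, Ctsl and Lamp2 were also higher, Atp6v0a1 and Ctsc lower. With DMSO replicate 1 added 3 of the 12 calls held, those of Atp6v0b, Atp6v1f and Ctsa, and with both library scores in the fit 4 held, those of Atp6v1b2, Atp6v1d, Atp6v1f and Lamp2. The depth of this library was 1340300 counts, its hepatocyte markers summed to 23011 CPM, against 40302 to 64005 CPM in DMSO, and its macrophage markers to 37.3 CPM, against 111 to 148 CPM, with 8 of 14 at 0. Endothelial markers summed to 41.0 CPM, against 16.1 to 23.7 CPM. The part of these values in the result was not tested.

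Dithiopyr, a pyridine herbicide, had 4 members higher and 2 lower, where 6.26% of all probes were higher and 6.74% lower. Atp6v1d had 523, 525, 527, 562, 626 and 895 CPM at 0.14 to 33.3 µM, against 441 to 566 CPM in DMSO, and the 2 highest doses were above the controls (0.67 ± 0.15, adjusted p = 0.00891). Atp6v0b had 7.92 CPM at 33.3 µM and 2.09 to 3.32 CPM below it, against 1.03 to 4.16 CPM in DMSO (1.77 ± 0.50, adjusted p = 0.0292), and Atp6v1f 171 CPM at 33.3 µM and 85.7 to 129 CPM below it, against 87.7 to 148 CPM (0.70 ± 0.20, adjusted p = 0.0340). Ctsa rose by 1.85 ± 0.59 (adjusted p = 0.0486), although its 3 highest doses, 3.22, 3.69 and 3.49 CPM, all lay within the DMSO range of 1.04 to 4.87 CPM, and the call ended in 19 of 25 alternative settings.

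Ctsc had 118 CPM at 33.3 µM dithiopyr, against 264 to 488 CPM (median 349.5) in DMSO, and fell by 1.31 ± 0.31 (adjusted p = 0.0115). Ctsh, an aminopeptidase among the cathepsins, had 67.5 CPM there, against 47.3 to 197 CPM in DMSO, the lowest control being replicate 5 and the next 134 CPM, and fell by 1.30 ± 0.41 (adjusted p = 0.0491). The Ctsh call ended in 15 of 25 alternative settings, among them the fits without DMSO replicate 2, 3, 4, 7, 8 or 9. In the 33.3 µM library alone, where 3.01% of all probes were higher and 5.94% lower, Atp6v1d, Atp6v0b and Atp6v1g1 were higher and Ctsc and Atp6v1b2 lower. Hepatocyte markers summed to 19495 CPM in this library, against 40302 to 64005 CPM in DMSO, and macrophage markers to 74.5 CPM, against 111 to 148 CPM. The part of these values was not tested. With DMSO replicate 1 added, Atp6v0b under cyproconazole remained the only member called in any of the 29 trends.

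**Figure D3:**
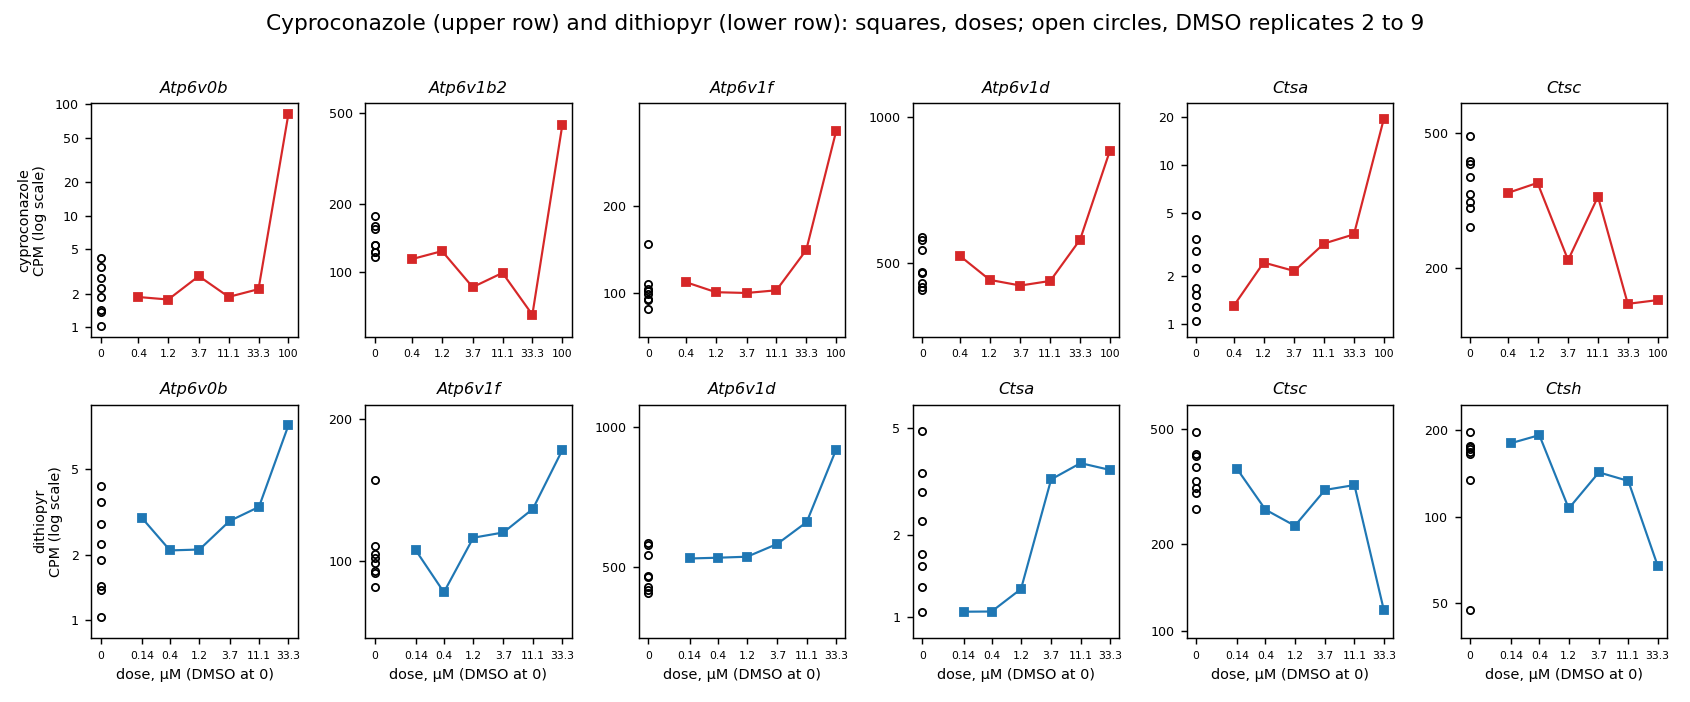
CPM (log scale) of 6 members against dose in µM under cyproconazole (upper row, red squares) and dithiopyr (lower row, blue squares), 1 library per dose, with DMSO replicates 2 to 9 as open circles at 0. Atp6v0b reaches 81.3 CPM at 100 µM cyproconazole and 7.92 CPM at 33.3 µM dithiopyr, while the 5 lower doses of each lie within the control range of 1.03 to 4.16 CPM.

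Ctsc was the member called most often, lower in 6 of 29 chemicals, and its fitted change was below 0 in 29 of 29, from -1.85 for Bisphenol A to -0.02 for imazalil. The share of all probes called lower was 2.14% under triticonazole, 1.49% under S-Bioallethrin, 1.17% under PFOA and 0.841% under oxadiazon. Under S-Bioallethrin, a pyrethroid, Ctsc had 239, 237, 237, 190.3, 156 and 166 CPM at 0.4 to 100 µM, all below the 264 to 488 CPM of DMSO (-0.85 ± 0.15, adjusted p = 0.00586). Under triticonazole, a triazole, it had 258, 198, 225, 198, 242 and 173 CPM, again all below DMSO (-0.74 ± 0.18, adjusted p = 0.0372). Under PFOA it had 234, 309, 329, 269, 207 and 113 CPM (-0.75 ± 0.19, adjusted p = 0.0403), and under oxadiazon 340.4, 330.1, 286, 238, 281 and 217 CPM (-0.55 ± 0.12, adjusted p = 0.0405), so that 3 of 6 libraries of PFOA and 2 of 6 of oxadiazon were below the controls.

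The level of Ctsc moved with the second library score. Over the 182 treated libraries other than the one that sets the score, Pearson's r of log2 CPM with the score was -0.93 for Ctsc and -0.82 for Atp6v1b2. The libraries share plates and controls, and r is given as a description. Ctsc had 9.48 CPM and Atp6v1b2 2.33 CPM in the Bisphenol A 11.1 µM library, against 264 to 488 and 116 to 176 CPM in DMSO. Over the 6 rising doses of Bisphenol A, Ctsc had 384, 59.5, 355, 46.6, 9.48 and 177 CPM, with no order by dose, and its trend was not called (-1.85 ± 0.98, adjusted p = 0.542). Without the 33.3 µM library the Bisphenol A trend was called lower for Ctsc (-7.31 ± 1.31, adjusted p = 0.00518) and for Atp6v1b2 (-7.34 ± 1.32, adjusted p = 0.00518), Ctsb, Ctsf, Ctsl and Ctsz, the 11.1 µM library then being the last dose. These changes carry the fitted line on to 33.3 µM, a dose at which the library itself had 177 CPM of Ctsc. The share of all probes called in that fit is not given, and nothing particular to the members is read from it. Low values also fell in middle doses of other chemicals, with 52.5 CPM of Ctsc at 1.2 µM cyclanilide, 51.7 CPM at 3.7 µM Bensulide and 69.7 CPM at 0.4 µM imazalil, where Atp6v1b2 had 23.2, 23.7 and 25.2 CPM. With the second score in the fit, the Ctsc call held under dithiopyr (-0.89, adjusted p = 0.00661) and ended under the 5 others. With both scores it held under dithiopyr, S-Bioallethrin (-0.47, adjusted p = 0.0361) and triticonazole (-0.45, adjusted p = 0.0213).

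**Figure D4:**
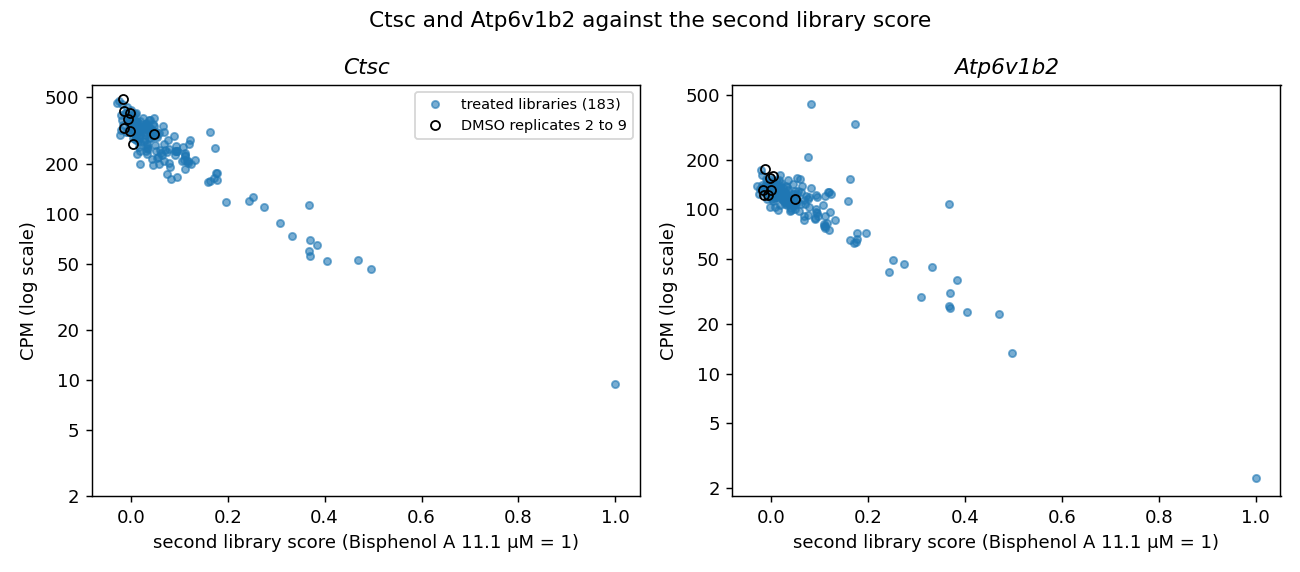
CPM (log scale) of Ctsc and Atp6v1b2 against the second library score (no unit, set to 1 in the Bisphenol A 11.1 µM library) in 183 treated libraries (filled) and DMSO replicates 2 to 9 (open). Ctsc descends along the score to 9.48 CPM; Atp6v1b2 descends to 2.33 CPM, with cyproconazole 100 µM at 441 CPM and sulforaphane at 329.9 CPM above the rest.

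Several members followed the first library score over the 183 treated libraries: Ctsh (r = -0.88), Atp6v1c1 (-0.85), Ctsf (-0.72) and Atp6v0c (0.84). Unlike the second score, the first did not leave out the members. Ctsh and Atp6v0c were themselves far from the other controls in DMSO replicate 5, which sets it, so r is given as a description. Among the other members called under imazalil, r was -0.62 for Atp6v1e1, -0.60 for Atp6ap2 and -0.56 for Ctsl. It was -0.42 for Atp6v1g1, -0.35 for Atp6v1d and, in the other direction, 0.45 for Atp6v1f. The 33.3 µM imazalil library had the lowest first score of the treated libraries. PFOA at 100 µM had the score 1.83, a depth of 2304919 counts and 3 members higher and 9 lower when tested alone, where 16.8% of all probes were higher and 21.1% lower. Ctsh had 3.90 CPM in it, against 47.3 to 197 CPM in DMSO (-4.61 ± 0.81, adjusted p = 0.00269), and Atp6ap2 40.8 CPM, against 89.0 to 186 CPM (-1.11 ± 0.23, adjusted p = 0.00579). Ctsd had 172 CPM, against 66.9 to 124 CPM, and was higher (1.31 ± 0.32, adjusted p = 0.0112). Macrophage markers summed to 75.1 CPM there and hepatocyte markers to 53937 CPM, inside the DMSO range. By CPM 4 members lay above and 17 below all of DMSO replicates 2 to 9, beside 21.9% and 52.3% of all probes. Fitted changes use TMM-scaled counts and can differ from the ratio of printed CPM. Atp6v1f, among the members higher (0.76 ± 0.25), had 132 CPM, inside its DMSO range of 87.7 to 148 CPM. Ctsl was fitted at -0.67, with 2721 CPM against a DMSO median of 6659 CPM.

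In the highest-dose libraries of all 29 chemicals, each tested alone against DMSO, members were called in 8 chemicals. The share of all probes called in the same direction is printed with each of the 8. Besides those above, carbaryl at 100 µM had Ctsc lower, with 55.5 CPM, against 264 to 488 CPM in DMSO (-2.66 ± 0.25), and Atp6v1b2 lower, with 30.996 CPM, against 116 to 176 CPM (-1.92 ± 0.20), where 1.66% of all probes were lower. Its second score was 0.37. Fludioxonil at 100 µM had Ctsl higher and Ctsc lower, where 1.27% and 2.87% of all probes were called. Oxadiazon at 100 µM had Atp6v1d higher, with 849.99 CPM, against 441 to 566 CPM in DMSO (0.82 ± 0.15, adjusted p = 0.020038), where 0.715% of all probes were higher. Triticonazole at 100 µM had Ctsc lower, where 2.52% were. In the other 21 chemicals edgeR called 0 of 651 tests (32 higher and 25 lower at an unadjusted p under 0.05), DESeq2 called 4 higher and 7 lower, and 0.236% of all probes were called. With DMSO replicate 1 added, 4 calls were made.

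**Figure D5:**
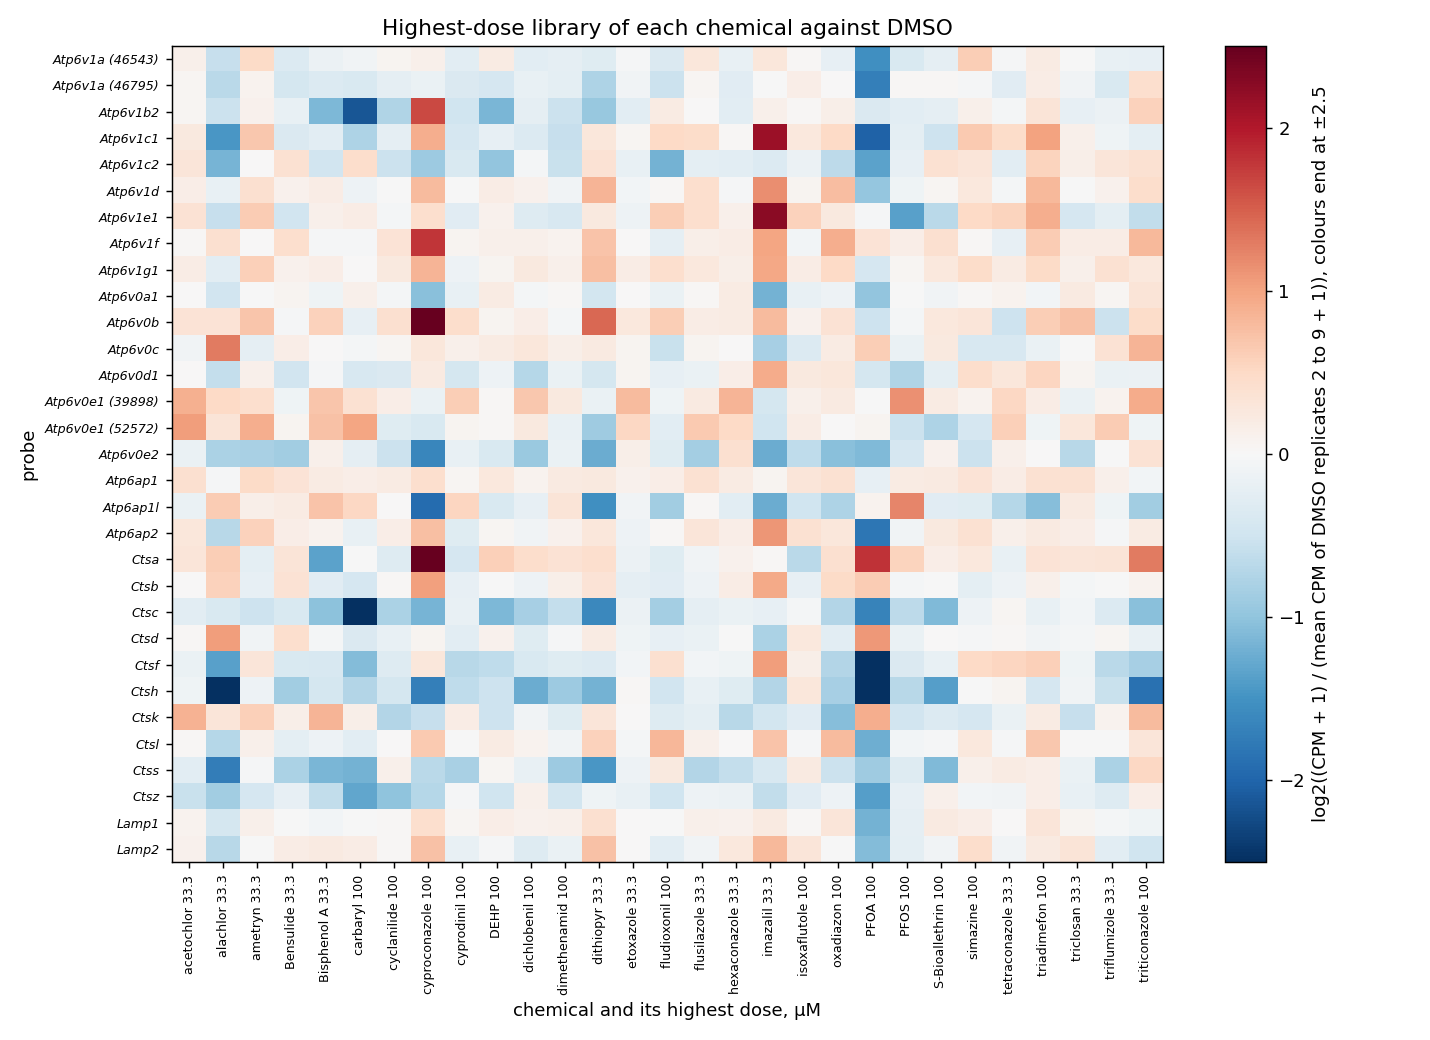
Log2 of (CPM + 1) over (mean CPM of DMSO replicates 2 to 9 + 1) for the 31 tested probes (down) in the highest-dose library of each of 29 chemicals (across, with its dose in µM), with colours ending at ±2.5. Imazalil and cyproconazole are red across most V1 subunits, PFOA is blue in Ctsh and Ctsf, and the Ctsc line is blue in most chemicals and darkest for carbaryl.

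Among the 9 reference chemicals sulforaphane, an isothiocyanate that activates the NRF2 response, had 7 members higher and 0 lower, where 9.93% of all probes were higher. Atp6v1b2 had 329.9 CPM, against 116 to 176 CPM in DMSO (1.86 ± 0.17, adjusted p = 0.000125), Atp6ap2 309 CPM, against 89.0 to 186 CPM (1.82 ± 0.20, adjusted p = 0.000301), and Ctsb 4974 CPM, against 1453 to 2948 CPM (1.48 ± 0.31, adjusted p = 0.00700). All 3 were above every control and above the 8 other reference libraries, which reached 161, 172 and 2420 CPM. Atp6v1f (227 CPM), Atp6v1g1 (357 CPM), Atp6v1e1 (79.0 CPM) and Atp6ap1 (443 CPM) were the other calls. This library had the lowest depth of all, 582071 counts, and 10 of 14 macrophage markers were at 0. The median fitted change over all probes was -1.07. Fitted changes use TMM-scaled counts, so they are not relative to that median and can exceed the ratio of printed CPM. Atp6v1b2 was fitted at 3.64-fold, with 329.9 CPM against a DMSO median of 132 CPM. Atp6ap1 was fitted at 1.71-fold, with 443 CPM against a DMSO median of 366 CPM. By CPM 8 members lay above and 11 below all of DMSO replicates 2 to 9, beside 15.9% and 63% of all probes. Bile duct markers summed to 127 CPM in it, against 16.0 to 29.2 CPM in DMSO, and hepatocyte markers to 48822 CPM, inside the DMSO range. The part of depth and of these markers in the result was not tested. With both library scores in the fit Ctsb alone was still called, and with DMSO replicate 1 added Atp6v1f alone. The Ctsb change was 3.98 with both scores and 0.22 with the second score alone, against 1.48 in the main fit. The second score was 0.17 here, against -0.016 to 0.049 in DMSO replicates 2 to 9, so these fits cannot separate it from the treatment. In the other 8 references edgeR called 0 of 248 tests (4 higher and 11 lower at an unadjusted p under 0.05), DESeq2 called 1 lower, and 0.552% of all probes were called.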

How the data were processed

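The authors deposited raw read counts per probe for 192 libraries, without normalization. Bowtie is named in the submitters' processing notes, and its version and the build are not given in the sources used here. The members and the gene lists were chosen with earlier results of these data known. Counts were scaled with TMM in edgeR 4.0.16 (R 4.3.3), and 11055 probes with at least 1.7406 CPM (10 counts in a median library) in at least 6 libraries were tested with its quasi-likelihood test and Benjamini-Hochberg adjustment, two-sided, with a plate term. Each chemical was fitted with DMSO replicates 2 to 9. Printed CPM values use total counts. DESeq2 1.42.0 served as an alternative, as did its size factors, no filter, DMSO replicate 1, library scores as covariates (5535 and 5515 probes), ranked doses, and leaving out libraries. Any member could be named, called or not, and from each other list up to 4 called genes by smallest adjusted p, with the 5 probes closest to Atp6v1d by correlation. Sidt2 and Adgre1 were named after their values were seen. The test was checked on simulated counts. A single library per dose means that a dose has no replicate of its own and its precision comes from the fit. Counts of PCR-amplified ligation products are not independent molecules.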

Additional observations from a re-analysis of the deposited data

Results flagged for a closer look

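Within the 8 control libraries, 8 of 31 member probes had 1 library far from the others by Dixon's criterion, which chance meets in about 1 in 20 groups. Of all 11055 tested probes 14.8% met it, and nothing is read from the members' count. DMSO replicate 5 had 98.4 CPM of Atp6v0c, against 41.0 to 62.0 CPM in the other 7, and 124 CPM of Ctsd, against 66.9 to 87.1 CPM. It was the lowest for Ctsh at 47.3 CPM, against 134 to 197 CPM, Lamp1 at 248 CPM, against 342 to 374 CPM, Lamp2 at 58.4 CPM, against 104 to 126 CPM, and Atp6v1g1 at 178 CPM, against 242 to 280.1 CPM. DMSO replicate 7 had 148 CPM of Atp6v1f, against 87.7 to 107 CPM, and replicate 9 had 0.567 CPM of Atp6v0e2, against 1.997 to 2.57 CPM.

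The slope under imazalil differed from the mean slope of the other 4 azoles, by edgeR's test of the difference, for 13 members. The differences at 33.3 µM were 0.83 for Atp6v1d, 0.87 for Atp6ap2, 0.63 for Atp6v1g1, 1.50 for Atp6v1c1, 0.83 for Lamp2, 1.54 for Atp6v1e1, 0.86 for Atp6v0d1, 0.74 for Ctsb, 0.63 for Atp6v1f, 0.50 for Ctsl, 0.98 for Ctsf, 1.16 for Atp6v0b and -0.64 for Atp6v0a1. Between the imidazoles and the triazoles the slope of Atp6v1g1 differed by 0.42.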

How the results depend on the processing

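Adding DMSO replicate 1 left 1 member call in the 29 trends (22 without it), 0 for imazalil (7), 3 for imazalil minus other azoles (13), 0 for the imidazoles (1), 1 in the references (7), 4 in the highest-dose libraries (48) and 0 in the imazalil 33.3 µM library (13). With the first score as covariate there were 64 calls in the trends, 2 for the imidazoles, 18 in the references and 111 in the highest-dose libraries. With the second score the imazalil 33.3 µM library had 8, of which 5 were among its 13. With both scores there were 43 in the trends (17 of the 22 among them), 2 for the imidazoles, 27 in the highest-dose libraries and 1 in the imazalil 33.3 µM library. Ranked doses gave 8 in the trends and 0 for imazalil and the imidazoles. Without the highest dose there were 9 in the trends, of which 1 (Ctsc under S-Bioallethrin) was among the 22 and 8 were new, 6 of them lower under Bisphenol A, and 0 for imazalil, its contrast and the imidazoles. DESeq2 gave 41 in the trends and 2 for the imidazoles, its size factors 2, no filter 0 and leaving out libraries of high first score 2 for the imidazoles. The cause was not tested for any of these. Counts over all probes moved with the settings too, and nothing particular to the members is read from these changes. In the imazalil trend 849 probes were higher and 317 lower in the main fit. With DMSO replicate 1 they were 43 and 7, and with the first score 640 and 448. Leaving out single libraries gave 12 (DMSO replicate 2) to 43 (replicate 5) in the trends, 0 to 13 for imazalil, 0 to 15 for its contrast, 0 to 3 for the imidazoles, 7 to 11 (replicate 5) in the references, 33 to 103 (replicate 5) in the highest-dose libraries and 7 to 17 in the imazalil 33.3 µM library. The direction turned for Atp6v1c1 under imazalil without the highest dose (-0.11; single libraries left out, up to 2.24) and for Atp6v1e1 with DMSO replicate 1 (-1.67) and without the highest dose (-0.13; up to 2.33). In the azole contrast it turned without the highest dose for Atp6v1e1 (-0.13, up to 1.95) and Atp6v1f (-0.0775, up to 0.758). In the imazalil 33.3 µM library it turned with both scores for Atp6v0b (-0.31), Atp6v1e1 (-0.53) and Ctsl (-0.21), with the second score for Ctsb (-0.34), and with replicate 1 for Atp6v1e1 (-1.56) and Lamp2 (-0.0024). In the sulforaphane library both scores turned Atp6ap1 (-0.0377) and Atp6v1e1 (-0.19). In that library and the imazalil 33.3 µM library the second score lay above all of DMSO replicates 2 to 9. Triticonazole could not be fitted without the libraries of high first score. No paired analysis was possible because replicate numbers exist for DMSO alone and each dose has 1 library. Depth limits probes near the filter, such as Atp6v0b, Ctsa and Atp6v0e2.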
